A study of Mus musculus with 18 samples.

Results

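The TRIM genes encode the tripartite motif proteins, most of which join a RING finger, B-boxes and a coiled coil to a variable C-terminal part. Of 35869 gene symbols in the deposited expression files, 68 carried a Trim name, taken here as the letters Trim, a number and at most 1 further letter. Of these 68 genes, 41 had at least 1 TPM (a level per transcript length, scaled so that each library has the same sum) in at least 4 of 17 libraries and are described. Of the 27 others, 22 stayed below 1 TPM in every library, and Trim38 and Trim52 were listed at 0 throughout. Just inside the rule stood Trim43a with 5 libraries at 1 TPM, and Trim14, Trim16, Trim30b, Trim30c and Trim56 with 8. Just outside it stood Trim43c and Trim75 with 2 libraries, and Trim43b, Trim55 and Trim61 with 1. Trim21, an antibody receptor of the cytosol, reached at most 0.9 TPM.

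RNA came from cells sorted by flow cytometry from brains of adult C57BL/6 mice, all of which had received tamoxifen by gavage, 5 times at 180 mg/kg. Animals called KO carried Cx3cr1CreERT2 and loxP-flanked Tgfb1 (Cx3cr1CreERT2-Tgfb1fl/fl). Control animals carried the Cx3cr1CreERT2 recombinase alone. The groups were KO microglia (n = 4), control microglia (n = 4, animals 1, 2, 4 and 5), KO astrocytes (n = 4) and control astrocytes (n = 5). Within a group each library came from a separately numbered mouse. By title most mice gave both cell types, so the microglia and astrocyte libraries are not independent. The main fits did not use this pairing, and a block for the mouse was an alternative. Cx3cr1 is active in microglia and in other tissue macrophages, so the recombinase is not limited to microglia, and astrocytes are not its target. Another library, whose title and sample code name different cell types, was left out.

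Most TRIM proteins are ubiquitin ligases, and many act in innate immunity. Some of them help RNA sensors to signal, others bind retroviral capsids or hold inflammatory signalling back, and interferon induces a number of their genes. The C-terminal part sorts them: 20 of the 41 genes were classed by a SPRY domain, which binds the target protein, and 3 by an NHL domain. Another 3 form the TIF1 group of chromatin regulators. Trim9 and Trim36, which end in SPRY after other named domains, were classed apart. So were 4 genes without a RING finger, whatever their C-terminal part. In macrophages, which microglia are, type I interferon is a known inducer of the mouse Trim30, Trim34 and Trim12 genes.

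Tgfb1 lay between 1.3 and 2.0 TPM in KO microglia and between 2.8 and 3.4 TPM in control microglia, without overlap. The summed level of 10 microglial markers was 10021 to 11051 TPM in KO microglia and 43131 to 46717 TPM in control microglia, all 10 being above 1 TPM in each library. The summed level of 8 markers of border-associated macrophages was 5605 to 6332 TPM in KO microglia and 389 to 726 TPM in control microglia, all 8 being above 1 TPM in each library. The rise came mainly from Pf4, Mrc1 and Ms4a7. Cbr2 was lower in KO microglia (38.0 to 43.3 TPM) than in control microglia (50.2 to 81.9 TPM), and Lyve1 overlapped (5.4 to 12.1 and 4.4 to 75.1 TPM). Astrocyte markers (10 genes, 6 above 1 TPM in every KO library and 4 in every control library) summed to 84.4 to 108.0 TPM in KO microglia and 302 to 640 TPM in control microglia. Slc1a3 made up most of the control sum, with 274.9 to 608.3 TPM, against 33.8 to 39.3 TPM in KO microglia. Slc1a2, Aldh1l1, Aldoc and Gjb6 were instead higher in every KO library than in every control library, Aldoc with 24.1 to 36.4 against 8.7 to 16.9 TPM. Neuronal markers (8 genes) summed to 16.8 to 72.6 TPM in KO microglia and 5.1 to 10.3 TPM in control microglia. Markers of monocytes and neutrophils (6 genes) summed to 11 to 14.5 TPM in KO microglia, where Plac8 was at 0, and 34.8 to 62.7 TPM in control microglia. Csf3r was the largest part of this sum in each library, with 9.1 to 11.4 TPM in KO microglia and 28.0 to 35.5 TPM in control microglia. All 5 sums moved with the genotype without overlap, though not every marker went with its sum. Their part in the results below was not tested. Every KO library and those of control mice 1 and 2 held Xist RNA, and those of control mice 3, 4 and 5 held Ddx3y RNA. Genes at 1 TPM or more numbered 12903 to 13127 in KO microglia and 12456 to 12849 in control microglia.

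Control microglia and control astrocytes were compared first, to see where each gene is expressed. Trim30a, which in mouse macrophages degrades TAB2 and TAB3 and so limits Toll-like receptor signalling, had the largest difference on the log2(TPM + 1) scale. With a pseudocount of 0.1 TPM in place of 1 TPM the order changed, Trim9 (-7.03), Trim14 (5.82) and Trim30c (5.81) then exceeding Trim30a (5.55) in size. In control microglia it had 41.7, 52.5, 60.1 and 57.8 TPM in animals 1, 2, 4 and 5. In control astrocytes it had 1.8, 0.8, 0.9, 0.6 and 1.4 TPM. The groups did not overlap, the ratio of means was 48.2, and the log2 difference came to 4.70, SE 0.20 (limma, adjusted p = 8.4e-09; this and all later differences are of log2(TPM + 1)). Of 40 tested TRIM genes 20 were higher and 10 lower in control microglia, 75% in all, beside 65.7% of all 15332 genes tested, of which 26.2% were higher and 39.5% lower. The median difference was 0.44 for the TRIM genes and -0.19 for all genes. Of these 30 calls 7 were of genes that reached 1 TPM in no library of the other group, so that the filter on low values fixed their direction: Trim14, Trim30b, Trim30c and Trim56 in microglia, and Trim9, Trim29 and Trim62 in astrocytes. Of the 33 other genes 16 were higher and 7 lower. The cell types did not overlap for 28 of the 40 TRIM genes (70.0%), the 7 fixed by the filter included, beside 56.4% of all genes tested. Over all genes 4016 were higher and 6062 lower, and after quantile normalization 5534 were higher and 4850 lower, with a median of 0.11. The TRIM counts were then 23 higher and 9 lower, Trim3 losing its call and Trim16, Trim41 and Trim68 gaining one. With the mouse as a block, Trim11 and Trim17 lost theirs.

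The genes higher in control microglia were led by neighbours of Trim30a. Trim5, named for a primate factor that blocks retroviral capsids, had 17.2 to 24.0 TPM in control microglia and 0.7 to 1.5 TPM in control astrocytes (log2 difference 3.54). Trim30d followed with 16.8 to 33.6 TPM in control microglia and 0.9 to 2.0 TPM in control astrocytes (3.26). Trim30c (3.02), Trim14 (2.86) and Trim30b (2.47) were below 1 TPM in every control astrocyte library, and passed the filter on low values only through microglia. Among the 10 that were lower, Trim9, a neuronal ligase of netrin signalling, was at 0 TPM in all control microglia and at 11.5 to 14.6 TPM in control astrocytes (-3.80). Trim59, which spans a membrane, had 0.5 to 1.3 TPM in control microglia and 15.4 to 33.9 TPM in control astrocytes (-3.56). Trim62 (-1.84), Trim2 (-1.71), Trim29 (-1.59) and Trim37 (-1.36) followed, of which Trim29 and Trim62, like Trim9, passed the filter only through astrocytes.

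By class, 14 of 19 tested genes of the SPRY class were higher in control microglia and 1 was lower, beside 26.2% and 39.5% of all genes. Among the 14 were Trim5, Trim12c, Trim30a, Trim30b, Trim30d, Trim34a and Trim34b, related neighbours on chromosome 7 and so not independent. Trim30b among the 14 and Trim62 as the 1 were both fixed by the filter. Of the 2 genes classed apart for other named domains before SPRY, Trim36 was higher (1.51) and Trim9 lower, the latter fixed by the filter. Of the 4 genes without a RING finger 1 was higher (Trim14) and 1 lower (Trim29), both fixed by the filter. All 3 NHL genes and both transmembrane genes were lower. Trim35, a SPRY ligase first described in blood cells, was the most abundant TRIM gene in both cell types and did not pass (log2 difference -0.04, 95% interval -0.36 to 0.28). It had 206.2 to 223.3 TPM in control microglia and 153.8 to 256.6 TPM in control astrocytes. In control microglia Trim30a came second by median, followed by Trim8 and Trim17, whose ranges of 24.1 to 47.7 and 31.6 to 38.1 TPM overlapped. Of the 61-base words of Trim17 transcripts, 17.4% also occur in Hist3h2a, which overlaps it on the same strand. Hist3h2a had 502.6 to 626.3 TPM in control microglia, so the level of Trim17 is uncertain. Oligodendrocyte markers (8 genes) summed to 19.2 to 102.4 TPM in control microglia and 3660 to 5768 TPM in control astrocytes, and their part in these differences was not tested.

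**Figure D1:**
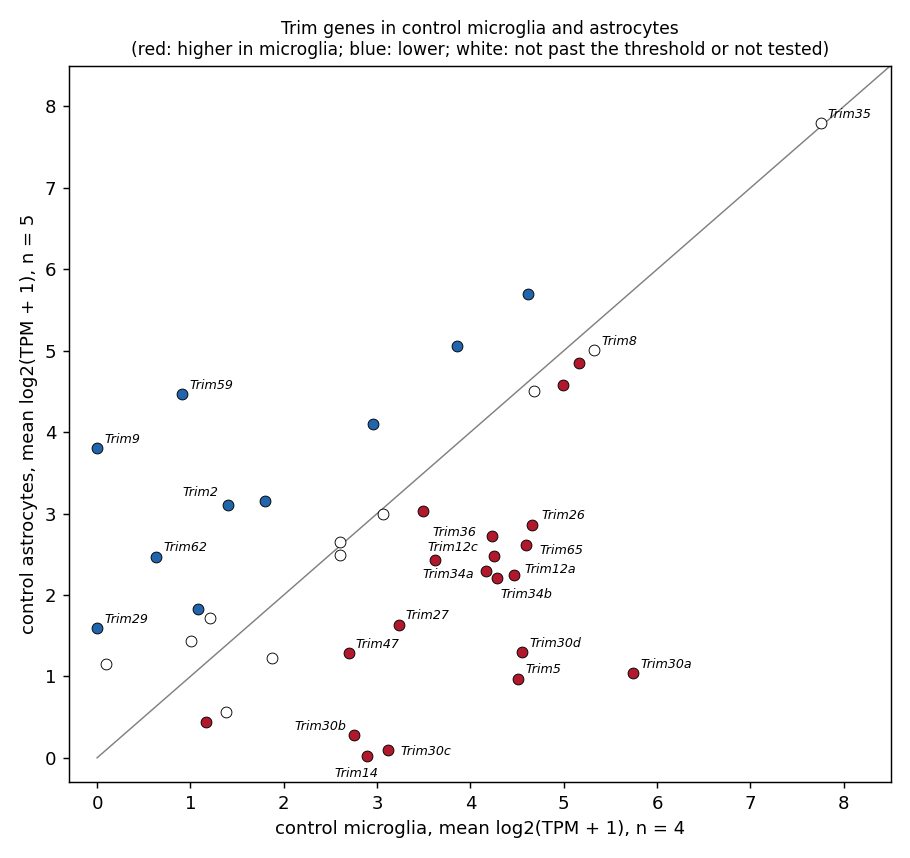
Mean log2(TPM + 1) of the 41 described Trim genes in control microglia (x axis, n = 4) and control astrocytes (y axis, n = 5), with 1 point per gene and a line of equal level. Trim30a, Trim5 and Trim30d lie farthest below the line (log2 differences of 4.70, 3.54 and 3.26), Trim9 and Trim59 farthest above it (-3.80 and -3.56).

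The 9 described genes named Trim5, Trim12, Trim30 and Trim34 form a cluster of related genes on chromosome 7, from 104244457 (start of Trim34a) to 104507849 (end of Trim30d) in GRCm38 coordinates. The 7 of them that reached 1 TPM in a library of both cell types were higher in control microglia than in control astrocytes, by log2 differences of 1.78 to 4.70, and Trim30b and Trim30c reached it in microglia alone. Their promoters were searched on both strands for the letters GAAA, any 2 bases and GAAA again (read from the other strand, TTTC, any 2 bases and TTTC), the core of the element that interferon-activated factors bind. RefSeq windows (GRCm38.p6) of 300 bases, from 250 before to 50 after a transcript start, existed for 30 of the 41 genes. The motif occurred in 8 of these 30 genes (26.7%) and in 3.99% of all 27025 genes with a window. In the cluster it occurred in 6 of 9 genes, namely Trim34a, Trim5, Trim12a, Trim12c, Trim30a and Trim30d. The others with it were Trim2 and Trim26. A match is a string of letters and no evidence of binding, and related genes share ancestry, so the 6 are not independent.

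The stretches around the matches are shown to compare the relatives, 5′ to 3′ on the strand of each gene with the motif in capitals. The first is Trim30a at its outermost start, chr7:104465195-104465254, followed by Trim30d, chr7:104507856-104507915, Trim5, chr7:104288121-104288180, Trim12c, chr7:104353344-104353403, Trim12a, chr7:104315466-104315510 (all minus strand), and Trim34a, chr7:104244442-104244486 (plus strand).
Trim30a: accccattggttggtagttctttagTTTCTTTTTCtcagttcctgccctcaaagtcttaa
Trim30d: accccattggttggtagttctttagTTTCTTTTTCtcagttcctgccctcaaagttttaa
Trim5: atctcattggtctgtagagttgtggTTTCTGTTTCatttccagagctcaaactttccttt
Trim12c: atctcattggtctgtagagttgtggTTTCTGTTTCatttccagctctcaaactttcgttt
Trim12a: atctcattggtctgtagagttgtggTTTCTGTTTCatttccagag
Trim34a: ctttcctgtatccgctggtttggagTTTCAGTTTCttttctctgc
Trim30a and Trim30d differ at 1 of 60 bases here, Trim12c and Trim5 at 3 of 60, and Trim12a and Trim5 at 0 of 45. Trim30a had the same 10 letters again at an internal start. Trim30b, Trim30c and Trim34b had no match in their windows.

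KO and control microglia were then compared to see which TRIM genes move when Tgfb1 is deleted in Cx3cr1-expressing cells. Trim30a had 78.3, 101.5, 123.4 and 105.1 TPM in KO microglia 1 to 4, against 41.7, 52.5, 60.1 and 57.8 TPM in control microglia. Every KO library lay above every control library. The log2 fold change came to 0.93, SE 0.16 (limma, adjusted p = 0.00214). An exact permutation of the 8 libraries, two-sided, returned its smallest possible p over 70 assignments, 0.0286, as for every gene without overlap between the groups. Of 37 tested TRIM genes 10 rose and 2 fell, which is 32.4%, beside 28.4% of all 13054 genes tested. Trim2, 1 of the 2, passed the filter only through controls, which fixed its direction, and of the 36 other genes 10 rose and 1 fell. By direction, 27% of the 37 TRIM genes rose and 5.41% fell, beside 14.2% each way over all genes, and the medians were 0.18 and 0.00. Outside the chromosome 7 cluster 5 of 28 tested TRIM genes rose and 2 fell, with a median of 0.06. KO and control libraries did not overlap for 11 of the 37 (29.7%), beside 30.6% of all genes tested. In such bulk libraries fewer cells of a type and less RNA per cell cannot be told apart.

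Within the cluster 5 of 9 genes rose and none fell, beside 14.2% of all genes each way, and 4 did not pass. The median was 0.56. These relatives share ancestry, and some share sequence, so the 5 are not independent. Trim30c had 13.9, 18.8, 23.7 and 14.0 TPM in KO microglia, against 4.8, 7.0, 12.2 and 8.2 TPM in control microglia. The groups did not overlap (log2 fold change 1.07, SE 0.27, limma adjusted p = 0.0146). Trim30d, whose promoter stretch is nearly that of Trim30a, had 20.5, 26.4, 30.9 and 24.4 TPM in KO microglia, against 33.6, 16.8, 21.7 and 20.9 TPM in control microglia. Here the highest value of all 8 libraries was that of control animal 1 (log2 fold change 0.16, 95% interval -0.31 to 0.63, adjusted p = 0.630). Trim30b had 2.7 to 4.9 TPM in KO microglia and 3.1 to 8.8 TPM in control microglia (-0.46, adjusted p = 0.264), and passed as lower without control library 2 (-0.69, adjusted p = 0.0445). Trim30a made up 67.3% to 71.2% of the summed Trim30 level in KO microglia and 46.9% to 66.1% in control microglia. The sum of Trim30a, Trim30b, Trim30c and Trim30d rose by 0.70 (adjusted p = 0.00471), with 115.4 to 182.9 TPM in KO microglia and 79.4 to 99.7 TPM in control microglia.

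Trim34a and Trim34b, relatives of a human gene that restricts lentiviruses together with TRIM5, rose alike in size. Trim34a had 22.4, 23.3, 32.6 and 26.8 TPM in KO microglia, against 19.9, 12.5, 19.3 and 17.1 TPM in control microglia (log2 fold change 0.59, adjusted p = 0.0351). Trim34b had 24.9, 26.1, 36.6 and 24.9 TPM in KO microglia, against 16.7, 16.7, 22.1 and 18.8 TPM in control microglia (0.56, adjusted p = 0.0264). Neither pair of groups overlapped, and KO library 3 was the highest for both. The 2 genes share much sequence: of the 61-base words of Trim34b transcripts, the length of a read, 50.2% also occur in Trim34a, so their split is uncertain. Their sum rose by 0.59 (adjusted p = 0.0180). Of Trim34a words 54.7% occur in other genes, 35.0% in Trim34b. Gm47248, which overlaps Trim34a on the other strand, also shares words with it, so the sum is uncertain too.

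Trim12a had 26.0, 27.8, 32.6 and 27.4 TPM in KO microglia, against 18.5, 19.9, 22.5 and 23.9 TPM in control microglia, again without overlap (log2 fold change 0.41, adjusted p = 0.0388). Trim12c, which in mouse cells acts with TRAF6 in interferon induction, had 28.5, 27.4, 35.8 and 19.3 TPM in KO microglia and 21.1, 11.9, 18.6 and 22.9 TPM in control microglia. Its groups overlapped through KO library 4 (0.56, adjusted p = 0.110). Trim5 had 20.2, 23.8, 24.6 and 20.1 TPM in KO microglia and 23.5, 17.2, 24.0 and 23.0 TPM in control microglia, which overlapped almost fully (0.02, 95% interval -0.30 to 0.35, adjusted p = 0.934). Its promoter stretch equals that of Trim12a over the 45 bases compared. Of Trim5 words 28.1% and of Trim12c words 25.8% occur in other genes, mostly in each other, against 5.46% for Trim30a and none for Trim30c.

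Calls in the cluster differed in how they held. That of Trim30a held under all 20 alternative settings, with log2 fold changes from 0.70 (summed paralogs) to 1.09. Against control animals 4 and 5 alone Trim30c (adjusted p = 0.0707), Trim34a (0.0727), Trim34b (0.131) and Trim12a (0.171) lost their calls, and against control animals 1 and 2 alone, which held Xist RNA as did all KO animals, Trim34a did (0.0723). Trim34a lost its call without KO library 2, 3 or 4 or control library 2 or 5 (adjusted p from 0.0540 to 0.0982), and Trim34b without KO library 2 or 3 or control library 1, 2 or 5 (0.0512 to 0.0634). Trim12a lost its call when any single KO library or control library 1, 2 or 4 was left out (0.0573 to 0.112).

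**Figure D2:**
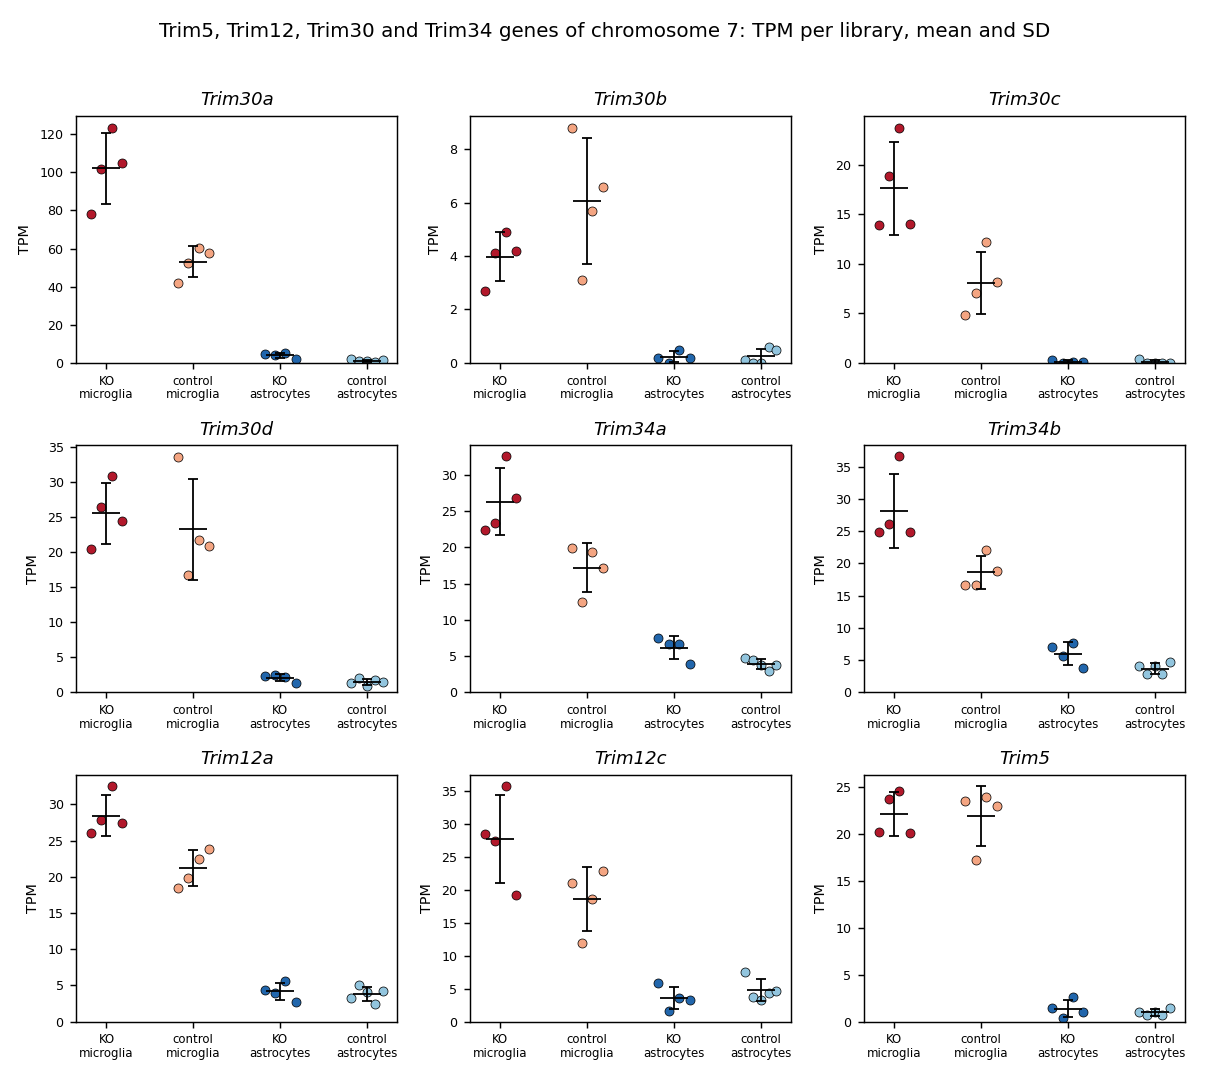
TPM of the 9 cluster genes in each library (points), with the mean and SD of each group, for KO microglia, control microglia, KO astrocytes and control astrocytes from left to right. KO microglia lie above control microglia without overlap for Trim30a (78.3 to 123.4 against 41.7 to 60.1 TPM), whereas Trim30d and Trim5 overlap, and astrocytes are lower than microglia for all 9 genes.

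Among ligases of nucleic acid sensing, Trim25, which ubiquitinates the RNA sensor RIG-I, showed the largest log2 fold change of the 37 genes. It had 30.7, 36.5, 58.1 and 35.6 TPM in KO microglia, against 16.3, 7.2, 9.2 and 14.9 TPM in control microglia, a ratio of means of 3.38. The groups were far apart, and KO library 3 stood highest (log2 fold change 1.70, SE 0.28, limma adjusted p = 0.00140). Trim14, which lacks a RING finger and in human cells links the adaptor MAVS to its kinases, had 15.4, 14.8, 20.6 and 25 TPM in KO microglia, against 5.5, 5.6, 8.6 and 6.3 TPM in control microglia. It too showed no overlap (ratio of means 2.92, adjusted p = 7.8e-04). Of Trim14 words 29.1% lie in transcripts of Nans on the opposite strand, and the strand setting of the counting is not given in the sources used here. Nans had 74.0 to 83.7 TPM in KO microglia and 79.8 to 90.3 TPM in control microglia (-0.11, adjusted p = 0.386). Trim56, a ligase tied to STING, and Trim65, tied to the RNA sensor MDA5, did not pass (0.20, adjusted p = 0.440, and 0.18, adjusted p = 0.717).

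Trim41, a ligase of protein kinase C in human cells, had 9.7, 8.4, 13.4 and 18.2 TPM in KO microglia, against 4.2, 5.0, 5.4 and 5.9 TPM in control microglia. The groups did not overlap (log2 fold change 1.08, adjusted p = 0.00674). Its locus overlaps that of Rack1 on the other strand, without a shared word between their transcripts. Rack1, of a ribosomal scaffold protein, rose too, with 438.4 to 564.7 TPM in KO microglia and 247.5 to 348.2 TPM in control microglia (0.72, adjusted p = 0.00278), and its part in the rise of Trim41 was not tested. Trim47, another SPRY ligase, had 11.6, 11.1, 18.4 and 22.7 TPM in KO microglia, against 2.6, 11.7, 5.3 and 5.1 TPM in control microglia. Control library 2 reached into the KO range (1.33, adjusted p = 0.0252), and the call ended without KO library 3 or 4 or control library 4 or 5 (adjusted p from 0.0555 to 0.0730) or against control animals 1 and 2 alone (0.115). For Trim14, Trim41 and Trim47 the highest values were those of KO libraries 3 and 4.

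Outside these groups 1 gene rose and 2 fell. Trim59 had 3.1, 3.7, 2.4 and 1.8 TPM in KO microglia, against 1.0, 1.3, 0.8 and 0.5 TPM in control microglia (log2 fold change 0.97, adjusted p = 0.00909), a low level next to that of the astrocyte libraries; it did not pass against control animals 1 and 2 alone (adjusted p = 0.0708). Trim2, an NHL ligase that in mouse neurons ubiquitinates neurofilament light chain, had 0.4, 0.9, 0.7 and 0.6 TPM in KO microglia, against 1.2, 1.4, 2.4 and 1.7 TPM in control microglia (-0.69, adjusted p = 0.0271). It passed the filter only through controls, and its call ended without KO library 1, 3 or 4 (0.0582 to 0.0888) and with no filter (0.0565). With any single control library left out, Trim2 failed the filter and was not tested. The astrocyte marker sum was lower in KO microglia through Slc1a3, while some other astrocyte markers were higher there. Their part in the Trim2 value was not tested. Trim36, a microtubule-associated ligase, had 11.9, 8.9, 11.1 and 8.4 TPM in KO microglia, against 10.4, 24.9, 22.1 and 17.2 TPM in control microglia. Control library 1 lay within the KO range (-0.77, adjusted p = 0.0472), and the call ended when any single KO library or control library 2, 4 or 5 was left out (0.0661 to 0.116), or against control animals 1 and 2 alone (0.203).

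**Figure D3:**
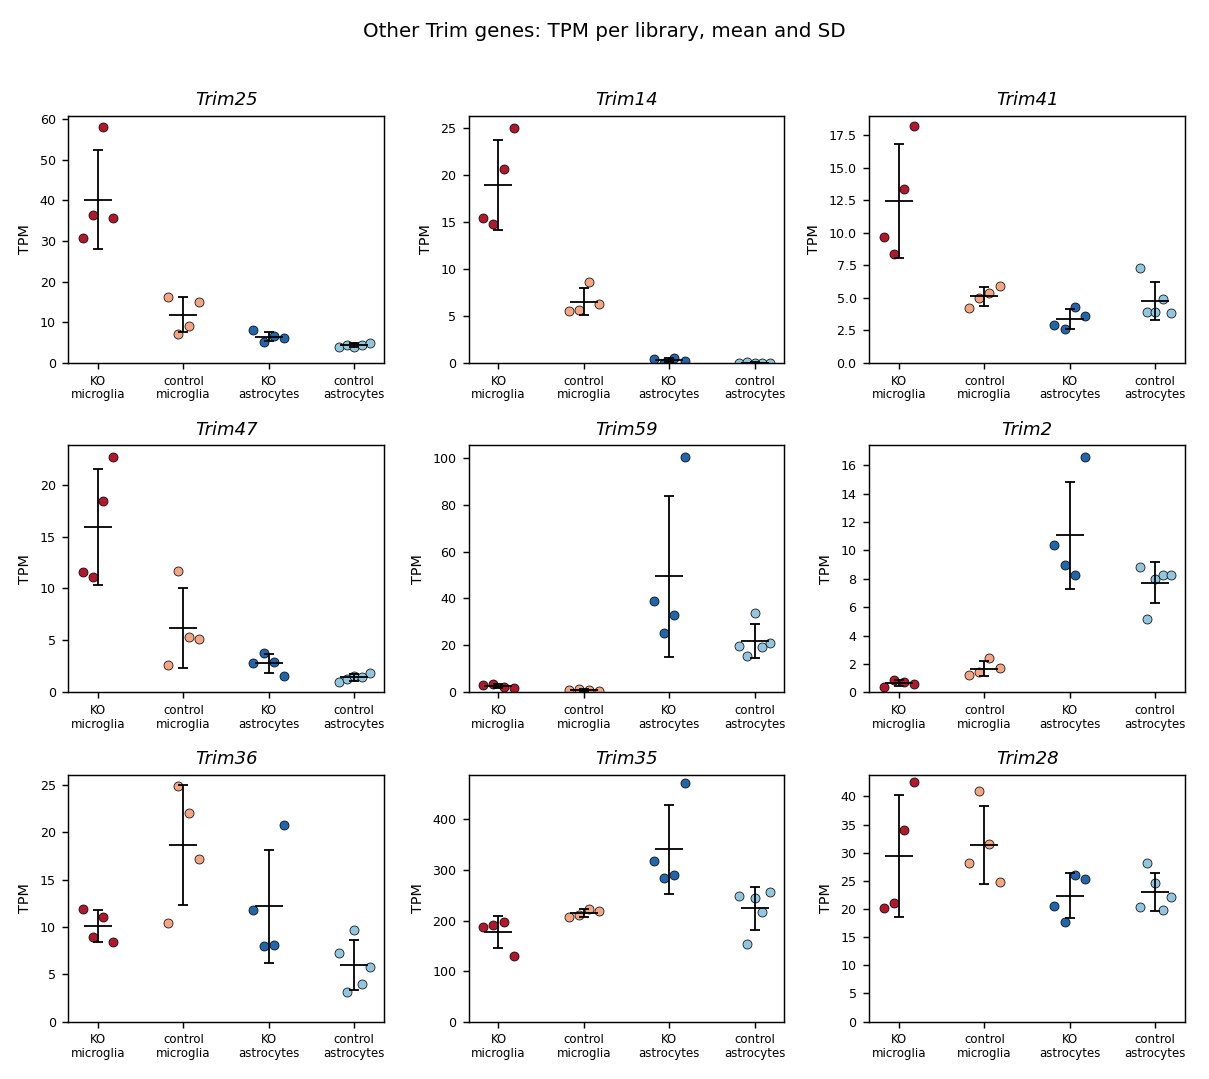
TPM of 9 Trim genes outside the chromosome 7 cluster in each library (points), with the mean and SD of each group, for KO microglia, control microglia, KO astrocytes and control astrocytes from left to right. Trim25 (30.7 to 58.1 against 7.2 to 16.3 TPM) and Trim14 (14.8 to 25 against 5.5 to 8.6 TPM) separate KO from control microglia, while Trim59 and Trim2 are higher in the astrocyte libraries.

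The TIF1 group joins the family to TGF-beta signalling and to chromatin. Trim33 (TIF1 gamma), which binds SMAD2 and SMAD3, had 7.0, 4.9, 6.5 and 6.4 TPM in KO microglia and 4.0, 4.5, 7.1 and 5.1 TPM in control microglia (log2 fold change 0.24, 95% interval -0.20 to 0.67, limma adjusted p = 0.421). Trim28, the co-repressor that KRAB zinc finger proteins recruit to silence retroelements, had 20.1, 21.1, 34.0 and 42.6 TPM in KO microglia and 28.2, 41.0, 31.5 and 24.8 TPM in control microglia (-0.13, 95% interval -0.71 to 0.44, adjusted p = 0.752). Trim24, a cofactor of nuclear receptors, had 1.6, 2.0, 2.2 and 3.4 TPM in KO microglia and 2.2, 0.4, 1.3 and 0.6 TPM in control microglia (0.68, adjusted p = 0.112). All 3 pairs of groups overlapped, and none of the 3 passed, though Trim24 did without control library 1 (0.91, adjusted p = 0.0308).

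**Figure D4:**
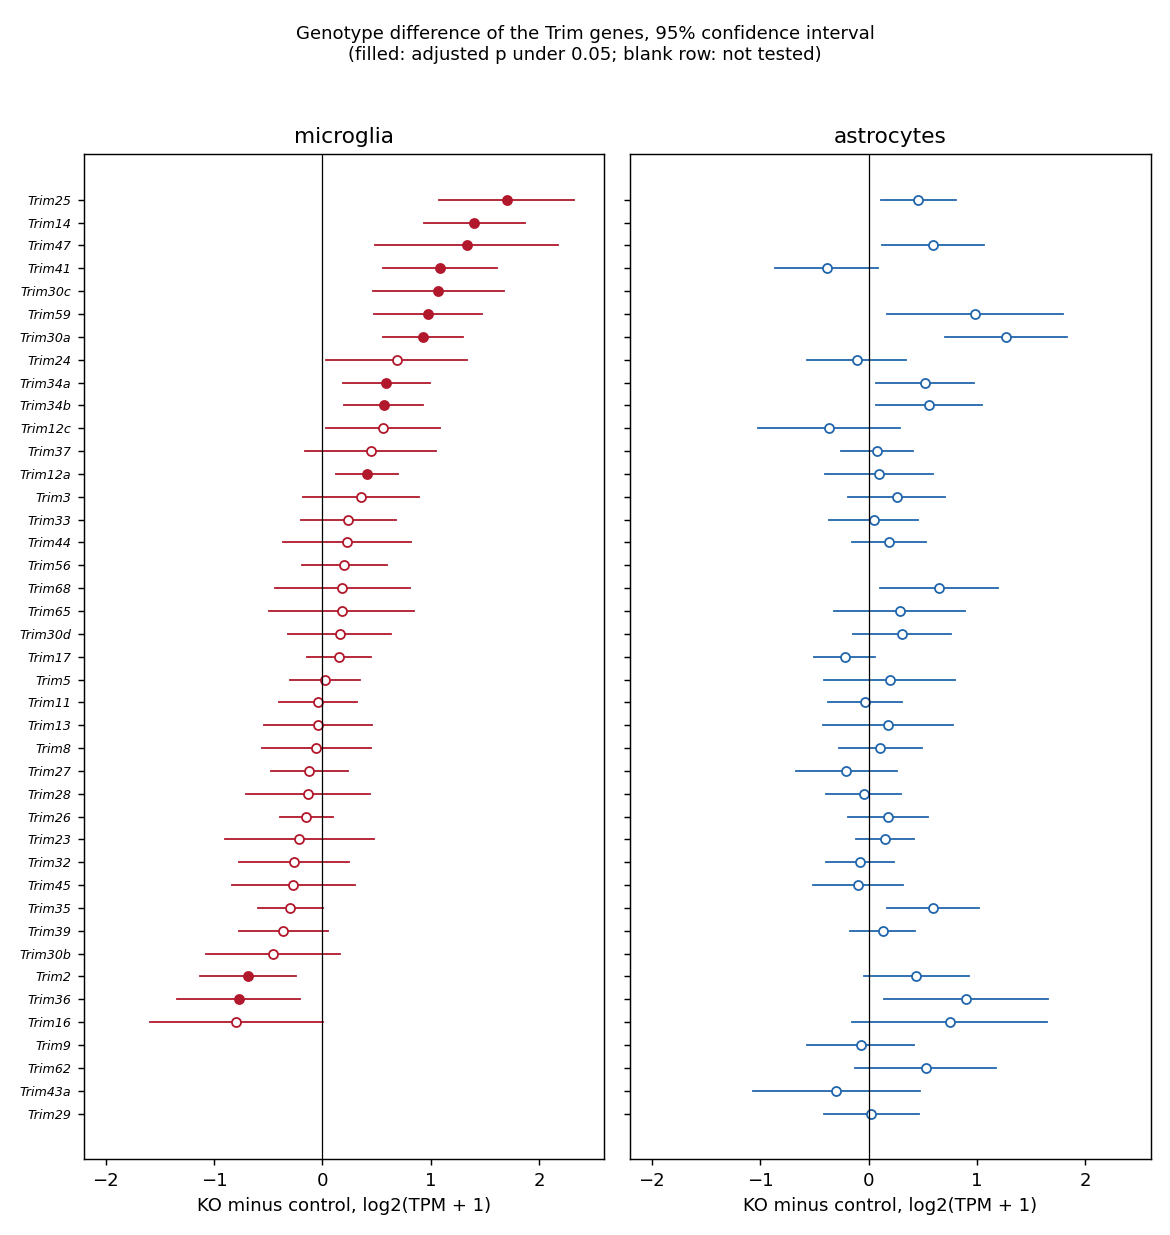
KO minus control difference of log2(TPM + 1) for the described Trim genes in microglia (left) and astrocytes (right), with 95% confidence intervals from limma; filled points have an adjusted p under 0.05. Trim25 (1.70) and Trim14 lead in microglia, and no gene is filled in astrocytes, where Trim30a (1.27) lies highest.

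Pathway genes without a Trim name were set beside the family. Of 38 tested interferon-stimulated genes 33 rose in KO microglia and none fell, with a median log2 fold change of 2.19, led by p by Ifitm3 (4.12), Oas1a (3.22) and Oasl2 (3.82). The rises of Trim30a, Trim14 and Trim25 were thus smaller in log2 than the median of that list. Of 13 tested genes of nucleic acid sensing that TRIM ligases act on or work with, 3 rose and 2 fell, beside 14.2% of all genes each way. Tmem173, which encodes STING, fell by 2.06 to 63.3 ± 3.44 TPM in KO microglia, against 267 ± 17.8 TPM in control microglia (SD, n = 4 each). Rnf135 (Riplet), another ligase of RIG-I, fell by 1.01 to 96.9 ± 4.98 TPM in KO microglia, against 196 ± 16.3 TPM in control microglia (SD, n = 4 each). Irf7, the interferon-inducing transcription factor, rose by 3.40.

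Of the TRIM relatives without a Trim symbol, Pml, the founder of PML nuclear bodies, had 6.63 ± 0.479 TPM in KO microglia and 1.98 ± 0.532 TPM in control microglia (SD, n = 4 each; log2 fold change 1.37, limma adjusted p = 3.3e-04), and it was the only riser of 2 tested. Of 8 silencing partners of TRIM28 none passed, with a median of -0.08. Of 6 SMAD genes and co-repressors tied to TRIM33, 3 fell and none rose, with a median of -1.06. These were Skil (-1.71), Ski (-1.45) and Smad7 (-2.07), which restrain SMAD signalling. Of the 8 genes with the promoter motif 3 rose and 1 fell, and of 19 tested genes with a window but no motif 6 rose and none fell, beside 14.2% of all genes each way. The shares with and without the motif were not tested against each other.

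Astrocytes of the same study were compared in the same way. Trim30a had 4.8, 4.2, 5.2 and 2.2 TPM in KO astrocytes 1 to 4, against 1.8, 0.8, 0.9, 0.6 and 1.4 TPM in control astrocytes 1 to 5. Every KO library lay above every control library. The log2 fold change came to 1.27, SE 0.25, and did not pass over all genes (limma, adjusted p = 0.221). For this gene alone, without adjustment for other genes, the exact two-sided permutation p was 0.0159. That is the lowest possible with 126 assignments, and every gene without overlap between the groups reaches it, so it adds nothing to the lack of overlap. With 1 spread estimated over all 17 libraries Trim30a passed (limma adjusted p = 0.0178). Of 37 tested TRIM genes 0 passed, beside 0.00657% of all 15231 genes. KO and control libraries did not overlap for 3 TRIM genes (8.11%), beside 4.4% of all genes tested. The median over the TRIM genes was 0.18 and over all genes 0.07.

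Microglial markers summed to 264 to 478 TPM in KO astrocytes and 329 to 383 TPM in control astrocytes, ranges that overlapped, with none of the 10 at 0 in every library of a group. Markers of border-associated macrophages summed to 100.9, 7.1, 29.6 and 17.2 TPM in KO astrocytes 1 to 4 and to 3.7 to 14.1 TPM in control astrocytes, with none of the 8 at 0 in every library of a group. Their part in the Trim30a values was not tested. Mural markers summed to 766 to 9649 TPM in KO astrocytes and 206 to 3220 TPM in control astrocytes, and without KO libraries 1 and 3, the highest, Trim30a had a log2 fold change of 0.99 (limma adjusted p = 0.620) and no TRIM gene passed.

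Other TRIM genes of astrocytes did not pass. Trim34a (log2 fold change 0.52, limma adjusted p = 0.354) and Trim34b (0.56, adjusted p = 0.358) were positive, Trim12c was negative (-0.37, adjusted p = 0.606), and Trim30d (0.31), Trim5 (0.19) and Trim12a (0.10) lay between. Trim30b and Trim30c were below the filter in astrocytes. Trim59 had 38.8, 25.4, 33.1 and 100.3 TPM in KO astrocytes and 19.7, 15.4, 33.9, 19.1 and 21.2 TPM in control astrocytes (0.98, adjusted p = 0.345). KO library 4 stood far above the rest, and the same library held 14332 TPM of oligodendrocyte markers, against 5655 to 7031 TPM in the other KO libraries, whose part in these values was not tested. Its values were also the highest of all astrocyte libraries for Trim35 (471.2 TPM), Trim36 (20.8 TPM) and Trim2 (16.6 TPM). Trim33, Trim28 and Trim24 had log2 fold changes of 0.04, -0.05 and -0.11. Of 32 tested interferon-stimulated genes 1 passed, Usp18, with 65.4 ± 18.1 TPM in KO astrocytes (SD, n = 4) and 9.42 ± 2.62 TPM in control astrocytes (SD, n = 5), and the median of the list was 1.06.

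Whether the KO effect differed between the cell types was tested as the effect in microglia minus that in astrocytes. Of 41 genes 7 passed, which is 17.1%, beside 15.5% of all 17087 genes, with 4 higher and 3 lower. The effect was larger in microglia for Trim41 (difference 1.47, SE 0.31, limma adjusted p = 0.00362), Trim25 (1.24, adjusted p = 0.0126) and Trim14 (1.09, adjusted p = 0.00731). Trim41 averaged 12.4 ± 4.39 TPM in KO microglia, 5.12 ± 0.718 TPM in control microglia (SD, n = 4 each), 3.35 ± 0.759 TPM in KO astrocytes (SD, n = 4) and 4.76 ± 1.49 TPM in control astrocytes (SD, n = 5). The Trim14 difference depends on its level near 0 in astrocytes, 0 to 0.5 TPM in KO and 0 to 0.1 TPM in control libraries: with a pseudocount of 0.1 TPM it was 0.10 (adjusted p = 0.946). Trim30c, likewise below 1 TPM in every astrocyte library, had a difference of 0.63 on that scale (adjusted p = 0.645).

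The effect was lower in microglia for Trim36 (difference -1.67, limma adjusted p = 0.0187), Trim2 (-1.13, adjusted p = 0.0139) and Trim35 (-0.89, adjusted p = 0.0214). Trim35 had 187.7, 192.1, 197.1 and 130.7 TPM in KO microglia, against 206.2, 211.3, 223.3 and 217.9 TPM in control microglia. In astrocytes it had 317.7, 283.7, 290.9 and 471.2 TPM in KO libraries, against 247.9, 153.8, 245.3, 216.7 and 256.6 TPM in control libraries. KO thus lay below control in microglia and above it in astrocytes without overlap, though neither comparison passed (-0.30, adjusted p = 0.131, and 0.59, adjusted p = 0.322). With the animal as a block, since the titles give both cell types of a mouse the same number, the difference of Trim35 did not pass (adjusted p = 0.0701), nor did that of Trim30c (1.00, adjusted p = 0.0410, and 0.115 with the block). Trim30c also lost its call without any of 10 single libraries (adjusted p from 0.0515 to 0.0901), namely KO microglia 2 and 3, control microglia 1, 2 and 5, KO astrocytes 2, 3 and 4, and control astrocytes 1 and 3.

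For Trim30a the effects in microglia (0.93) and astrocytes (1.27) were not told apart (difference -0.34, 95% interval -0.99 to 0.31, limma), although its level differed widely between the cell types. The 7 other cluster genes besides Trim30c ranged in this difference from -0.45 (Trim30b) to 0.92 (Trim12c) and did not pass, nor did Trim33 (0.19), Trim28 (-0.09) and Trim24 (0.80). Trim24 passed without control microglia 1 (1.02, limma adjusted p = 0.0387).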

How the data were processed

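The authors deposited TPM values rounded to 1 decimal for each library. A level below 0.05 TPM therefore reads 0, and since read depth cannot be recovered, no counting interval is printed. Per the labels, reads were paired and 61 bp long. Names in the submitters' processing notes, given without roles, are the build mm10, featureCounts 1.6.2, STAR 2.6.1e, cutadapt 1.9.1 and Trim Galore 0.4.2. The annotation, the strand setting and the handling of reads that match several places are not given in the sources used here, so values of relatives and overlapping genes are uncertain.

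Each fit kept genes that reached 1 TPM in 4 or more of its libraries and tested log2(TPM + 1) with limma 3.58.1 (R 4.3.3, moderated, variance trend, two-sided, Benjamini-Hochberg over all genes, threshold 0.05). The scripts were tested on simulated data. Fold changes on this scale understate those of low genes. Groups followed the titles, and 1 of 18 libraries was left out. Members, gene lists and settings were chosen with earlier results of these data known. The genes named are Trim30a, the chromosome 7 cluster, the TIF1 group, each gene past the threshold between genotypes or in the difference of effects, the 6 largest differences each way between cell types, and up to 3 per list. Trim3, Trim8, Trim11, Trim16, Trim17, Trim21, Trim56, Trim65, Trim68, Nans and Rack1, and Trim35 and Trim59 in some places, were chosen after their values were seen. So were Hist3h2a and the cell type markers named singly. Positions and transcripts came from GENCODE M21 (GRCm38). Both cell types of a mouse share its number (correlation of their deviations from the group means 0.03 to 0.189), so the block is a paired fit between cell types. Alternatives changed the pseudocount, filter, scaling, spread, block and control animals, summed relatives or left out single libraries. Python 3.11.15, pandas 2.3.3, numpy 2.4.6, scipy 1.17.1 and matplotlib 3.10.9 were also used.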

Additional observations from a re-analysis of the deposited data

Results flagged for a closer look

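The KO effect differed between microglia and astrocytes by limma's test of the difference for 7 genes. On the log2 scale the effect in microglia exceeded that in astrocytes by 1.47 for Trim41, 1.24 for Trim25, 1.09 for Trim14 and 1.00 for Trim30c. Trim14 and Trim30c were below 1 TPM in every astrocyte library, and with a pseudocount of 0.1 TPM neither passed (0.10, adjusted p = 0.946, and 0.63, adjusted p = 0.645). The difference was -1.67 for Trim36, -1.13 for Trim2 and -0.89 for Trim35.

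Single libraries stood far from the rest of their group in 10 of 147 combinations of gene and group, where chance flags about 1 in 20, or 7. In KO microglia these were Trim34b in library 3 (36.6 TPM, the highest) and Trim35 in library 4 (130.7 TPM, the lowest). In KO astrocytes, library 2 was highest for Trim23 (69.9 TPM) and lowest for Trim27 (1.4 TPM), and library 4 was highest for Trim13 (60.6 TPM). In control microglia, library 1 was lowest for Trim8 (24.1 TPM) and library 2 for Trim5 (17.2 TPM). In control astrocytes, library 2 was lowest for Trim2 (5.2 TPM) and highest for Trim37 (9.9 TPM), and library 1 was lowest for Trim45 (1.3 TPM).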

How the results depend on the processing

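Of the single gene values, 1094 kept direction and side of the threshold, 72 lost a call, 6 gained one and 46 changed sign, none of the last being called in the results above. Causes were not tested beyond what each setting changes. In microglia the calls of Trim14, Trim25, Trim30a and Trim41 held under all 20 settings. The 10 higher TRIM genes became 6 against controls 4 and 5 alone, 7 against controls 1 and 2 alone (Trim34a, Trim47 and Trim59 losing their calls), and 6 to 9 when single libraries were left out (6 without KO library 3). The 2 lower ones became 1 with a pseudocount of 0.1 TPM, a filter at 5 TPM, no variance trend, controls 4 and 5 alone or 1 fit over all 17 libraries, 0 with no filter or controls 1 and 2 alone, and 0 to 1 without single libraries. In astrocytes the 1 gene called of all became 3 with no filter or controls 3, 4 and 5 alone, 0 with controls 1 and 2 alone or without KO libraries 1 and 3, 88 in 1 fit over all 17 libraries (where 1 TRIM gene, Trim30a, was higher), and 0 to 5 without single libraries. In the difference of effects the 4 higher TRIM genes became 2 with a pseudocount of 0.1 TPM.

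KO and control libraries of the same number came from different mice. Correlations of their deviations were -0.00412 to 0.0162 in microglia and -0.0756 to 0.176 in astrocytes. The latter reach into the range of the 2 cell types of a mouse (0.03 to 0.189), so the correlations do not decide whether numbers pair the genotypes. With a replicate block, 2079 genes passed in microglia, against 3711 without it, with 4 TRIM genes higher and 0 lower, and 0 genes passed in astrocytes. The block between cell types changed the calls given above and no other TRIM call.

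These uncalled values changed sign. In microglia Trim5 was -0.0023 with the replicate block and -0.086 against controls 4 and 5, where Trim28 was 0.0043, and Trim30b took the value of the Trim30 sum, 0.70. In astrocytes Trim12a was -0.018 and Trim33 -0.083 after quantile normalization, Trim33 -0.14 against controls 1 and 2, and Trim12a -0.15 summed with Trim12c. Without KO astrocytes 1 and 3, Trim12a was -0.14 and Trim5 -0.23. In the difference of effects Trim34b was -0.080 with a pseudocount of 0.1 TPM and -0.025 with the block, Trim30a 0.31 and Trim30d 0.0087 with a pseudocount of 5 TPM, and Trim28 0.010 with median-of-ratios scaling and 0.057 after quantile normalization.

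Without single libraries, in microglia Trim28 ranged from -0.33 to 0.021 and Trim5 from -0.086 to 0.067. In astrocytes Trim12a ranged from -0.029 to 0.25, Trim24 from -0.17 to 0.011, Trim28 from -0.12 to 0.057, Trim33 from -0.071 to 0.17 and Trim5 from -0.035 to 0.42. In the difference of effects Trim28 ranged from -0.28 to 0.066, Trim30d from -0.28 to 0.037, Trim34a from -0.10 to 0.16, Trim34b from -0.18 to 0.12 and Trim5 from -0.40 to 0.056. TPM give no read depth, so how far depth limits low genes such as Trim2 in microglia is unknown.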
